A study of Mus musculus with 18 samples.

Results

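Daily ultrasound on plain PLLA was examined in 6 of the 18 RNA sequencing libraries of the series, chosen by their labels: 3 from MC3T3-E1 cells on PLLA with ultrasound (+US) and 3 from the same cells on PLLA without it (-US). MC3T3-E1 is an established mouse line of bone-forming precursor cells, and PLLA is poly-L-lactic acid, a biodegradable polyester whose oriented fibres are piezoelectric. In both groups the cells were seeded at 20000 per well on 15 mm discs of gamma-irradiated membrane in 24-well plates and kept for 5 days. The +US cells received ultrasound for 10 min every day, and the -US cells none. The other 12 libraries came from membranes with zinc oxide (PLLA/ZnO) and with zinc oxide and collagen (PLLA/ZnO@Col), with 3 libraries per membrane and ultrasound condition. The labels name 1 cell line and do not say whether replicates were separate cultures, so p-values measure the spread between these libraries only, which may be technical. The 6 PLLA libraries held 49507020 to 78039543 counts each, over a table of 30452 genes.

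Pulsed ultrasound is used clinically on slow-healing fractures, and cells sense it as a mechanical stimulus. Stretch-gated channels such as Piezo1, integrins and the actin cytoskeleton pass such stimuli to calcium and kinase signals. These induce immediate early genes such as Fos and Egr1 within minutes and, in osteoblasts, the prostaglandin synthase Ptgs2. Osteoblasts follow these with matrix and mineralisation genes, under the transcription factors Runx2 and Sp7. The time between the last ultrasound session and lysis is not given in the labels.

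In edgeR's quasi-likelihood test no gene passed between +US and -US cells on PLLA: 0 of 11936 tested genes had a Benjamini-Hochberg adjusted p under 0.05, or 0.0%, and the smallest adjusted p was 0.978. An unadjusted p under 0.05 was found for 24 higher genes (0.201% of those tested) and 28 lower genes (0.235%). The tested genes were those with at least 1 FPKM (fragments normalised for the length of the transcript and the depth of the library) in at least 3 of the 18 libraries. Without PLLA +US replicate 3, which stood apart as described next, again 0 genes passed (0.0%, smallest adjusted p = 1), with 11 higher (0.0922%) and 12 lower (0.101%) at an unadjusted p under 0.05. DESeq2 called 0 genes in both sets, with 73 and 32 at an unadjusted p under 0.05. The 95% interval of a gene's log2 fold change had a median width of 0.50 to either side with all libraries, a factor of 1.41, and 0.56 without PLLA +US replicate 3. These intervals hold for a single gene before adjustment over all genes, so the adjusted test needs larger differences. They and the counts above also rest on a spread estimated over all membranes: with only the PLLA libraries 335 genes had an unadjusted p under 0.05 and 0 were called, and with limma-voom and sample quality weights 1032 had one and 1 was called.

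PLLA +US replicate 3 carried transcripts of tissues that are not bone. Kap, an androgen-regulated gene of the kidney tubule, was at 62.4 FPKM in PLLA +US replicate 3 and had no count in the other 5 PLLA libraries. Umod, which encodes uromodulin of the kidney, was at 2.61 FPKM and Slc34a1, the renal phosphate transporter, at 2.53 FPKM, again with no count in the other 5. Mbp, which encodes myelin basic protein, was at 12.2 FPKM, against at most 0.313 FPKM in the other 5, and the neuronal gene Snap25 was at 1.48 FPKM against 0. Hbb-bs and Hba-a1, which encode globins, were at 8.61 and 4.77 FPKM, against at most 0.0788 and 0.18 FPKM. All 14 kidney markers had counts in PLLA +US replicate 3, while 8 to 10 of them had none in each of the other 5 libraries. The summed level of the kidney list was 88.5 FPKM in PLLA +US replicate 3 and 14.9 to 17.5 FPKM in the other 5. In the other 5 most of this sum was 1 member, Gatm, at 14.7 FPKM or more. Gatm went the other way and was lowest in PLLA +US replicate 3, at 11.5 FPKM. The sums were 33.7 against 2.18 to 3.16 FPKM for 7 myelin markers, 9.05 against 0.263 to 0.376 FPKM for 10 neuron markers and 20.5 against 0 to 0.292 FPKM for 7 erythroid markers. In the 12 libraries of the other membranes these sums reached at most 19.0, 3.7, 1.15 and 0.387 FPKM. In all, 370 genes had at least 50 counts in PLLA +US replicate 3 and none in the other 5 PLLA libraries, and they made up 0.107% of its counts. For each of the other 5 libraries the same count was 0 or 1. The part of these transcripts in the comparison was not tested beyond giving results with and without that library.

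**Figure D1:**
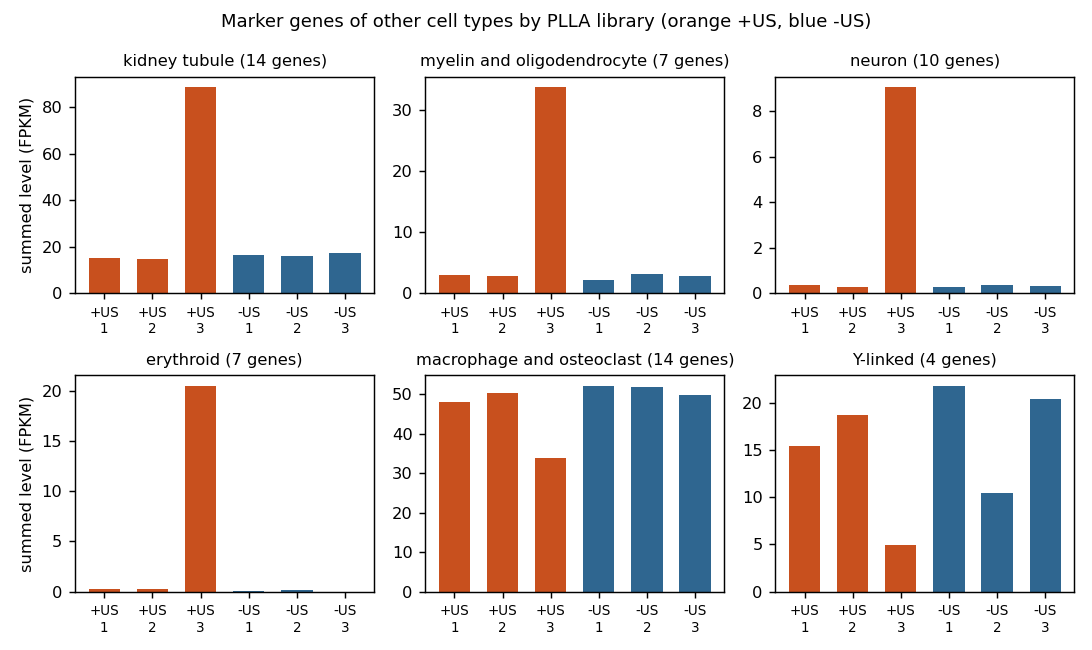
Summed level in FPKM of 6 marker lists in each PLLA library, with 1 bar per library (orange +US, blue -US, replicate numbers below). PLLA +US replicate 3 stands above the other 5 for kidney, myelin, neuron and erythroid genes, at 88.5, 33.7, 9.05 and 20.5 FPKM, and below them for macrophage and Y-linked genes, at 33.9 and 4.97 FPKM.

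The same library lacked a set of blood-cell transcripts that the other 5 PLLA libraries held at low levels. Itgam, an integrin of myeloid cells, was at 1.37, 1.05 and 0 FPKM in +US replicates 1 to 3, against 1.37, 1.49 and 1.48 FPKM in -US replicates 1 to 3. Ccl3, a chemokine of activated macrophages, was at 4.07, 4.56 and 0.12 FPKM in +US cells, against 5.47, 5.04 and 5.03 FPKM in -US cells. Lyz2, the lysozyme gene of macrophages, was at 18.4, 19 and 7.41 FPKM in +US cells, against 20.6, 21.2 and 19.7 FPKM in -US cells. Cd14, an endotoxin co-receptor, was not lower, at 13.8, 14.8 and 15.9 FPKM in +US cells, against 15.4, 13.8 and 14 FPKM in -US cells. Ctsk, from the same marker list, was at 6.71, 7.83 and 8.3 FPKM in +US cells, against 5.94, 5.89 and 5.86 FPKM in -US cells. It was higher without overlap (log2 fold change 0.33, SE 0.28). Of 8 tested macrophage and osteoclast markers 6 were lower in +US cells with all libraries (median log2 fold change -0.60) and 7 without PLLA +US replicate 3 (median -0.18), and 0 passed the test. The summed level of all 14 was 48, 50.4 and 33.9 FPKM in +US replicates 1 to 3, against 52.1, 51.7 and 49.7 FPKM in -US replicates 1 to 3. Among libraries of the other membranes the lowest such sum lay below that of PLLA +US replicate 3. In bulk libraries fewer cells of a type and less RNA per cell cannot be told apart. The 4 Y-linked genes summed to 15.4, 18.7 and 4.97 FPKM in +US replicates 1 to 3 and to 21.8, 10.5 and 20.4 FPKM in -US replicates 1 to 3. On the other membranes this sum was as low as 0.185 FPKM, in PLLA/ZnO@Col -US replicate 1. Low macrophage and Y-linked sums were thus not particular to PLLA +US replicate 3 in the whole series. The 10 osteoblast markers summed to 3680, 4040 and 3300 FPKM in +US replicates 1 to 3 and to 3580, 3650 and 3720 FPKM in -US replicates 1 to 3. Col1a1, Spp1 and Sparc made up most of this sum, whereas Sp7, Alpl, Bglap and Ibsp stayed at or under 0.626 FPKM. The sum does not by itself show the labelled cell type. Fibroblast markers summed to 561 to 817 FPKM in +US cells and 593 to 732 FPKM in -US cells, and osteocyte markers to 116 to 154 and 123 to 134 FPKM. Chondrocyte markers summed to 14.8 to 18.9 FPKM in +US cells and 16.6 to 19.9 FPKM in -US cells, and astrocyte markers to 11.1 to 17.3 and 11.3 to 12 FPKM, highest in PLLA +US replicate 3. Liver markers reached 4.47 FPKM in that library, against at most 0.58 FPKM in the other 5. Skeletal muscle markers summed to 8.32 to 13.6 FPKM in +US cells and 7.87 to 10.7 FPKM in -US cells, and keratinocyte markers to 3.84 to 5.45 and 4.34 to 5.33 FPKM. Single genes made up most of several of these sums. They were S100a4 (538 to 794 FPKM) for fibroblast, Pdpn (115 to 154 FPKM) for osteocyte and Sox9 (14.0 to 19.4 FPKM) for chondrocyte markers. For astrocyte, skeletal muscle and keratinocyte markers they were Slc1a3, Eno3 and Trp63. These sums do not by themselves show such cell types. Lists for heart, pancreas, lung, intestine, lymphocytes, neutrophils, endothelium and adipocytes stayed at or under 2.14 FPKM in all 6, and testis markers had no count. Among tested genes, 44 lay more than 4 times below the lowest other PLLA library in PLLA +US replicate 3, and 2 to 8 did so in each of the other 5 libraries. They included Laptm5, Srgn and Ctss, which leukocytes express, at 0.0615, 0.0174 and 0.128 FPKM in that library, and at least 1.44, 1.35 and 1.14 FPKM in the other 5.

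The libraries also differed along the base composition of their transcripts. GC content, the share of G and C bases, was taken from 1 transcript per gene. In the 2385 tested genes with the lowest GC content (17.1% to 44.3%), the median log2 deviation from the mean of all 18 libraries was 0.26, 0.36 and -0.59 in +US replicates 1 to 3, against 0.53, 0.10 and 0.42 in -US replicates 1 to 3. In the 2385 with the highest GC content (55.7% to 84.2%) it was -0.05, -0.11 and 0.11 in +US replicates 1 to 3, against -0.23, -0.03 and -0.15 in -US replicates 1 to 3. PLLA +US replicate 3 was lowest of the 6 for AT-rich genes and highest for GC-rich genes. The part of base composition in each result was not tested beyond fits without that library and fits with a correction for GC content and length.

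**Figure D2:**
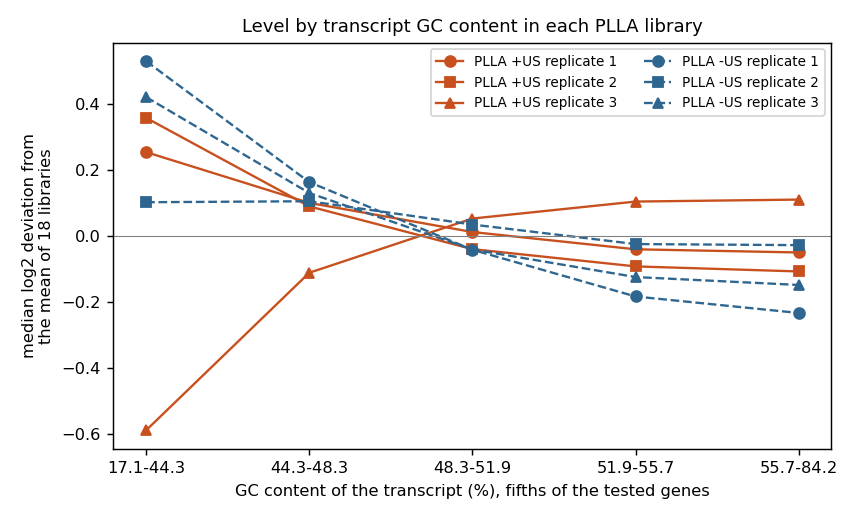
Median log2 deviation of each PLLA library from the mean of the 18 libraries (y axis) over groups of 2385 tested genes ordered by transcript GC content in percent (x axis), with solid orange lines for +US and dashed blue lines for -US libraries. At the lowest GC content PLLA +US replicate 3 lies at -0.59 and the other 5 libraries lie between 0.10 and 0.53.

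The base composition of single genes is shown by the coding sequences of the lowest and highest genes of that library. Of 1961 protein-coding genes with at least 20 FPKM on average and no predicted or clone name, Cops2 and Smc4 were the lowest in PLLA +US replicate 3 against the other 5, and Ier3 and Ndufa12 the highest; these 4 were chosen after their values were seen. Cops2, a subunit of the COP9 signalosome, was at 9.77 FPKM in PLLA +US replicate 3 and 19.8 to 50.3 FPKM in the other 5. Smc4, a condensin subunit, was at 7.67 against 11.2 to 40.5 FPKM. Ier3, an early response gene, was at 172 against 68.6 to 106 FPKM, and Ndufa12, an accessory subunit of respiratory complex I, at 51.0 against 22.3 to 26.6 FPKM. The middle 100 bases of each coding sequence are given 5′ to 3′ with G and C in capitals (GENCODE M21, GRCm38; genes at chr2:125830304-125859139, minus strand; chr3:69004738-69034623, plus; chr17:35821684-35822923, plus; chr10:94198720-94221443, plus).
Cops2: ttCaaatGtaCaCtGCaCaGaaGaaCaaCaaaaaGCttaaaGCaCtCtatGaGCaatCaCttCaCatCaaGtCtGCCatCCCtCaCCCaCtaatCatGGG
Smc4: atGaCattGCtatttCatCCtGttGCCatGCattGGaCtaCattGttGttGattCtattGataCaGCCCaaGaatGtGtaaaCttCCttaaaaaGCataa
Ier3: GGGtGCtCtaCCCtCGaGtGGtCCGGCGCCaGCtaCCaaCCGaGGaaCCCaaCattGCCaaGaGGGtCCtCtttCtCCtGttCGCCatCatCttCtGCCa
Ndufa12: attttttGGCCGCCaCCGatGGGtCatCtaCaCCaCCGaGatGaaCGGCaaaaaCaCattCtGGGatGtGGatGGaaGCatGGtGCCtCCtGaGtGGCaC
Over the whole coding sequence GC content was 38.1% for Cops2, 38.6% for Smc4, 61.9% for Ier3 and 50.8% for Ndufa12. The stretches hold 42.0%, 35.0%, 59.0% and 53.0% in that order. The transcripts, on which the groups of tested genes rest, held 37.3%, 40.2%, 54.4% and 51.5%. Both low genes were AT-rich. Of the high genes Ier3 was GC-rich over its coding sequence, but its transcript lay below the highest group, which began at 55.7%. Ndufa12 lay near the middle of the tested genes.

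No osteoblast gene passed the test between +US and -US cells on PLLA. Col1a1, the main collagen of bone (chr11:94936224-94953042), was at 972, 884 and 1020 FPKM in +US replicates 1 to 3, against 761, 998 and 831 FPKM in -US replicates 1 to 3, and the groups overlapped. Its 95% interval of the log2 fold change ran from -0.34 to 0.58. Runx2, the transcription factor that sets the osteoblast lineage, was at 9.14, 8.12 and 8.44 FPKM in +US cells, against 9.06, 9.54 and 8.79 FPKM in -US cells (interval -0.55 to 0.30). Sparc, which encodes the collagen-binding protein osteonectin, was at 669, 590 and 710 FPKM in +US cells, against 535, 661 and 612 FPKM in -US cells. Spp1, which encodes osteopontin, was at 1540, 2170 and 1030 FPKM in +US cells, against 1920, 1490 and 1860 FPKM in -US cells. The log2 fold change of Spp1 was -0.17 (SE 0.53) with all libraries and 0.09 (SE 0.58) without PLLA +US replicate 3, where it was lowest. Sp7, Alpl, Bglap and Ibsp, markers of further differentiation, did not reach the 1 FPKM filter and did not enter the main test. Sp7, a transcription factor downstream of Runx2, was at 0.524, 0.59 and 0.355 FPKM in +US cells, against 0.257, 0.276 and 0.558 FPKM in -US cells. Alpl, the alkaline phosphatase of mineralising cells, stayed at or under 0.178 FPKM and Bglap, which encodes osteocalcin, at or under 0.626 FPKM in the 6 libraries. Ibsp, which encodes bone sialoprotein, had no count in any of the 6, which allows up to 3 counts per library by counting error alone.

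**Figure D3:**
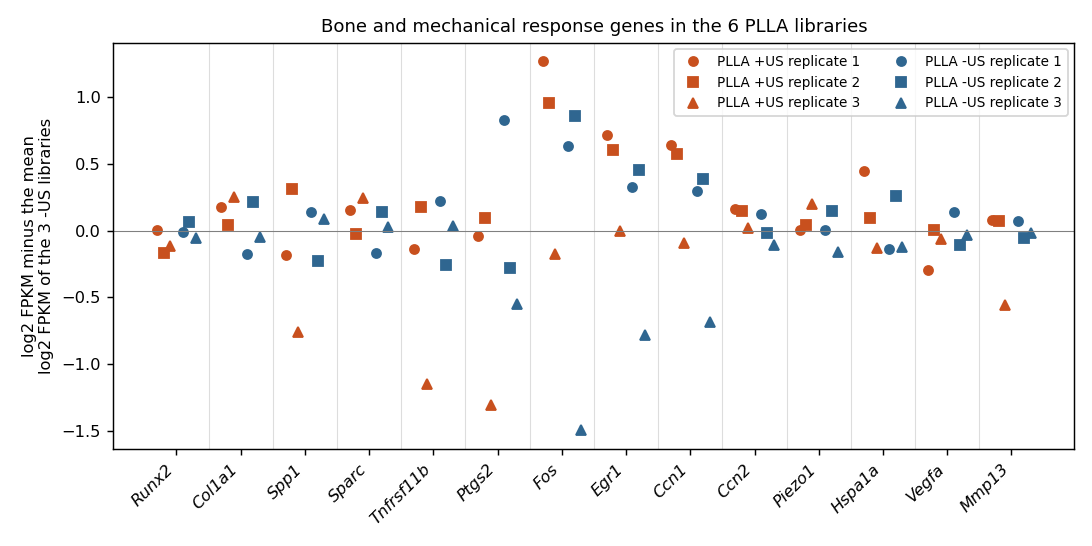
Log2 FPKM of 14 tested bone and mechanical response genes in each PLLA library, minus the mean log2 FPKM of the 3 -US libraries (y axis), with orange points for +US and blue for -US and a symbol per replicate number. Fos, Egr1 and Ccn1 are lowest in -US replicate 3, and Spp1, Tnfrsf11b, Ptgs2 and Mmp13 are lowest in +US replicate 3.

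The lists around these genes were close to the whole table, of which 50.5% of genes were higher in +US cells with all libraries (median log2 fold change 0.00) and 51.9% without PLLA +US replicate 3 (median 0.01). Of 12 tested osteoblast transcription factors 4 were higher in both sets, with medians of -0.03 and -0.05. Of 13 mineralisation and bone matrix genes 7 were higher with all libraries and 8 without that library (medians 0.03 and 0.06). Of 18 fibrillar collagens and matrix genes 11 and 10 were higher (medians 0.07 and 0.05), and of 19 collagen processing genes 13 and 12 (medians 0.14 and 0.05). With the correction for GC content and length collagen processing gave 10 of 19 and a median of 0.01. Plod3, a lysyl hydroxylase, was at 36.9, 38.7 and 48.7 FPKM in +US cells, against 30.6, 36.7 and 34.2 FPKM in -US cells, and these ranges did not overlap (log2 fold change 0.25, SE 0.15, unadjusted p = 0.113 in edgeR's test). Plod2, the telopeptide lysyl hydroxylase, was at 7.7, 7.78 and 6.3 FPKM in +US cells, against 10.3, 8.81 and 8.73 FPKM in -US cells (-0.38, SE 0.37). Over all tested genes the FPKM of the 3 against 3 libraries did not overlap with +US higher in 4.99% and with +US lower in 5.8%; for the 2 remaining +US libraries against 3 these shares were 6.27% and 8.67%. Among integrins and focal adhesion genes 1 of 20 lay above and 4 lay below without overlap with all libraries. The 4 were Itgav, the vitronectin receptor subunit, Itgb1, the common beta 1 subunit, Ptk2, which encodes focal adhesion kinase, and Fermt2, an integrin activator. Itgb1 was at 117, 116 and 96.3 FPKM in +US cells, against 136, 128 and 124 FPKM in -US cells (-0.26, SE 0.28). Transcripts of these 4 held 43.5% to 48% GC, and PLLA +US replicate 3 had the lowest level of each. Without that library 6 of the 20 lay below without overlap and 1 above. Of the 20, 10 were lower with all libraries (median -0.01), 13 without PLLA +US replicate 3 (median -0.09) and 7 without PLLA +US replicate 2 (median 0.08).

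Immediate early genes were mostly higher in +US cells, and the size of this difference rested on PLLA -US replicate 3. Of 24 tested members 20 were higher with all libraries (median log2 fold change 0.20), 19 without PLLA +US replicate 3 (median 0.21), 15 without PLLA -US replicate 3 (median 0.06) and 15 without both (median 0.07). With the correction for GC content and length 17 were higher (median 0.09). No member passed the test. Fos, a subunit of the AP-1 factor, was at 15.4, 12.4 and 5.64 FPKM in +US replicates 1 to 3, against 9.91, 11.6 and 2.26 FPKM in -US replicates 1 to 3. In both groups replicate 3 was the lowest. The log2 fold change of Fos was 0.48 (SE 0.59) with all libraries and 0.82 (SE 0.62) without PLLA +US replicate 3, against 0.04 without PLLA -US replicate 3 and 0.16 without PLLA +US replicate 1. Egr1, a zinc finger factor induced by serum and mechanical load, was at 71.3, 66 and 43.4 FPKM in +US cells, against 54.3, 59.6 and 25.2 FPKM in -US cells. Its change was 0.36 (SE 0.27) with all libraries and 0.58 (SE 0.27, unadjusted p = 0.0525 in edgeR's test) without PLLA +US replicate 3, but 0.06 (unadjusted p = 0.805) without PLLA -US replicate 3. Egr2, its paralogue, was at 11.7, 10.1 and 3.56 FPKM in +US cells, against 5.89, 9.04 and 3.13 FPKM in -US cells. Nr4a1, an orphan nuclear receptor, was at 11.3, 9.25 and 3.81 FPKM in +US cells, against 6.94, 7.15 and 3.66 FPKM in -US cells. PLLA -US replicate 3 had the lowest level of the 6 libraries in 17 of the 24 genes, and PLLA +US replicate 3 in 4. Ranges of +US replicates 1 and 2 lay above those of the 3 -US libraries in 7 of 24 members (Fos, Fosb, Egr1, Egr2, Nr4a1, Dusp5 and Btg2) and below in 1, Nr4a2, beside 6.27% and 8.67% of all tested genes. With all 3 +US libraries 1 member lay above without overlap and 1, Nr4a2, below, beside 4.99% and 5.8% of all tested genes. The member above was the antiproliferative gene Btg2, at 13, 13.2 and 12.1 FPKM in +US cells, against 10.7, 11.7 and 7.95 FPKM in -US cells (0.31, SE 0.22).

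**Figure D4:**
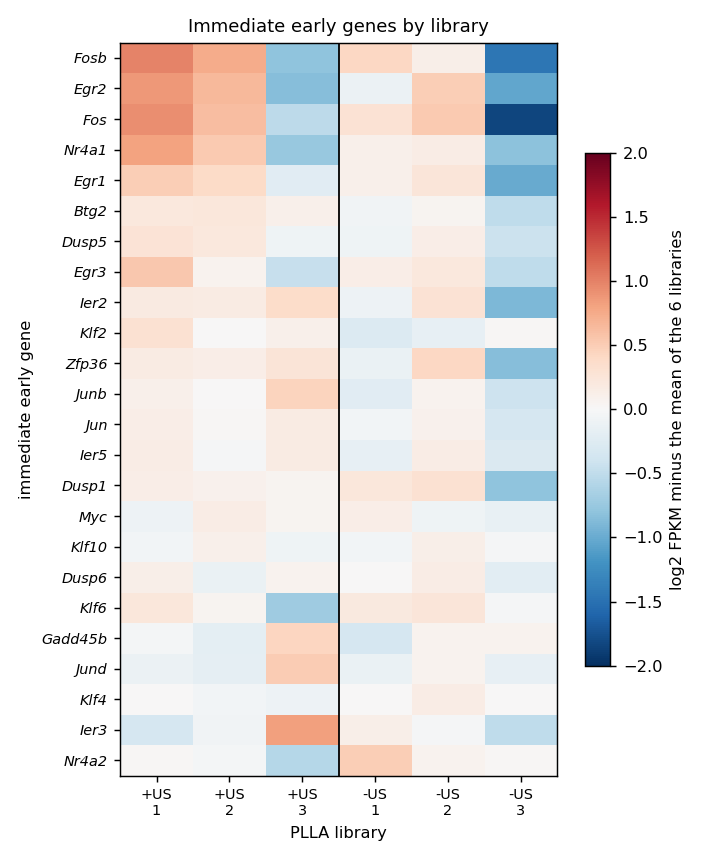
Log2 FPKM of 24 immediate early genes minus each gene's mean over the 6 PLLA libraries (colour), with +US libraries left of the line and -US libraries right of it and genes ordered by log2 fold change without PLLA +US replicate 3. The top rows, led by Fosb, Egr2 and Fos, are low in replicate 3 of both groups.

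Many of these genes are induced through serum response factor, which binds the CArG box, or through CREB, which binds the element TGACGTCA. These were searched in the 250 bases before each RefSeq gene start (GRCm38.p6), where both read the same on either strand. Promoters were matched for 21 of the 26 listed genes. A CArG box was found for 3 of the 21 (14.3%), against 1.62% of 27025 genes with a promoter, and TGACGTCA for 2 (9.52%), against 1.77%. A match is a description of the letters in this window and no evidence of binding. The 5 matches are shown as 100 bases 5′ to 3′, with the motif in capitals, because they carry the elements named above (Dusp5 chr19:53529023-53529122, plus; Egr2 chr10:67537449-67537548, plus; Zfp36 chr7:28379232-28379331, minus; Btg2 chr1:134079268-134079367, minus; Dusp1 chr17:26508562-26508661, minus).
Dusp5: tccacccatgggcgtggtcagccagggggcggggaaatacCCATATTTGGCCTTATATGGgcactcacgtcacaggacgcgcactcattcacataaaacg
Egr2: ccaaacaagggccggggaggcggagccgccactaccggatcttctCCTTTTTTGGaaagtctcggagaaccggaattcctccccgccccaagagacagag
Zfp36: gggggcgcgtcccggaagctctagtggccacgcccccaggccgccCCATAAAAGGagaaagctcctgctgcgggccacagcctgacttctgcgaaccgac
Btg2: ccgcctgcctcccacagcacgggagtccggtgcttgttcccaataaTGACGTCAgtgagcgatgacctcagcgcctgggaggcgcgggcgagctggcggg
Dusp1: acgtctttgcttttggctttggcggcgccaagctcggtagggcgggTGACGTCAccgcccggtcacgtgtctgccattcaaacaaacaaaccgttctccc
Dusp5, a phosphatase that inactivates ERK and carries 2 adjacent CArG boxes, was at 11.6, 11.1 and 9.06 FPKM in +US cells, against 9.04, 10.5 and 7.13 FPKM in -US cells. Zfp36, which destabilises cytokine mRNAs, was at 11.3, 11.1 and 12.1 FPKM in +US cells, against 9.22, 13.4 and 5.58 FPKM in -US cells. Dusp1, a phosphatase of stress kinases, was at 6.62, 6.44 and 6.27 FPKM in +US cells, against 7.12, 7.48 and 3.47 FPKM in -US cells. In these 3 genes and in Egr2 and Btg2 the lowest value was that of -US replicate 3.

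Genes that sense or relay mechanical force showed no list-wide difference. Of 9 tested mechanosensitive channels 3 were higher in +US cells in both sets (medians -0.03 and 0.00). Piezo1, the stretch-gated cation channel, was at 27.1, 27.8 and 31.1 FPKM in +US cells, against 27.2, 30 and 24.2 FPKM in -US cells (log2 fold change 0.04, interval -0.40 to 0.49). Trpm7, a channel with its own kinase, was at 6.18, 6.36 and 2.37 FPKM in +US cells, against 8.72, 4.29 and 7.14 FPKM in -US cells. Of 17 calcium entry and NFAT genes 7 were higher in both sets (medians -0.07 and -0.01). Of 20 targets and regulators of YAP and TAZ, coactivators that respond to stiffness, 10 were higher with all libraries and 8 without PLLA +US replicate 3 (medians 0.00 and -0.03). Ccn1, a matricellular YAP target, was at 242, 231 and 146 FPKM in +US cells, against 191, 203 and 96.7 FPKM in -US cells. Its log2 fold change was 0.32 (SE 0.29) with all libraries and 0.54 (SE 0.29, unadjusted p = 0.0825 in edgeR's test) without PLLA +US replicate 3, but 0.04 without PLLA -US replicate 3, and like Fos it was lowest in replicate 3 of each group. Ccn2, the connective tissue growth factor gene, was at 5.73, 5.68 and 5.2 FPKM in +US cells, against 5.58, 5.07 and 4.75 FPKM in -US cells (0.08, SE 0.33). Of 24 contractile actin genes 15 and 17 were higher (median 0.03 in both sets), and 4 with the correction for GC content and length (median -0.05).

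Ptgs2, the inducible prostaglandin synthase, was at 21.5, 23.6 and 8.94 FPKM in +US cells, against 39.3, 18.2 and 15.1 FPKM in -US cells. Its log2 fold change was -0.44 (SE 0.62) with all libraries, -0.09 (SE 0.66) without PLLA +US replicate 3 and 0.11 without PLLA -US replicate 1, where it was highest. Tnfrsf11b, which encodes osteoprotegerin, the decoy receptor that restrains osteoclasts, was at 8.05, 10 and 3.99 FPKM in +US cells, against 10.3, 7.39 and 9.06 FPKM in -US cells. Its log2 fold change was -0.29 (SE 0.42) with all libraries and 0.03 (SE 0.42) without PLLA +US replicate 3. Both transcripts are AT-rich, with 40.0% and 42.9% GC, and both were lowest in that library. Of 8 prostaglandin genes 3 were higher with all libraries and 2 without PLLA +US replicate 3, and of 7 osteoclast-regulating signals 3 and 4. Vegfa, the main angiogenic factor, was at 24.1, 29.6 and 28.2 FPKM in +US cells, against 32.5, 27.4 and 28.8 FPKM in -US cells (-0.15, SE 0.45). Mmp13, a collagenase, was at 1.34, 1.33 and 0.86 FPKM in +US cells, against 1.33, 1.22 and 1.25 FPKM in -US cells.

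Heat shock and antioxidant genes were mostly higher in +US cells, by small amounts, and none passed the test. Of 16 heat shock genes 11 were higher with all libraries (median 0.10) and 15 without PLLA +US replicate 3 (median 0.11). Ranges of all 3 against 3 libraries lay apart with +US higher in 6 of the 16, beside 4.99% of all tested genes: Hspa8, Hsp90ab1, Hspb1, Bag3, Cryab and Hsf1. Hspb1, which encodes the small chaperone Hsp27, was at 2.37, 2.51 and 3.51 FPKM in +US cells, against 1.44, 1.34 and 1.99 FPKM in -US cells (log2 fold change 0.77, SE 0.44, unadjusted p = 0.104 in edgeR's test). Bag3, a co-chaperone of tension-damaged proteins, was at 54.6, 53.8 and 65 FPKM in +US cells, against 46.8, 51.8 and 47.5 FPKM in -US cells (0.21, SE 0.17). Hsp90aa1, the inducible Hsp90, was at 121, 162 and 46.4 FPKM in +US cells, against 167, 77.3 and 144 FPKM in -US cells, so its groups overlapped widely. Hspa1a, the inducible Hsp70 and a gene with the near-identical copy Hspa1b, was at 3.96, 3.1 and 2.65 FPKM in +US cells, against 2.63, 3.48 and 2.66 FPKM in -US cells. With the correction for GC content and length 9 of the 16 were higher (median 0.02) with all libraries, and the median was 0.09 without PLLA +US replicate 3. Without that correction the median was 0.02 when PLLA +US replicate 1 was left out.

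Of 29 antioxidant genes 24 were higher with all libraries (median 0.21) and 25 without PLLA +US replicate 3 (median 0.09). That library held the highest level of the 6 in 20 of the 29. Gpx3, an extracellular glutathione peroxidase that the kidney makes in large amounts, was at 1.07, 1.15 and 23.2 FPKM in +US cells, against 1.26, 1.09 and 1.21 FPKM in -US cells. The log2 fold change of Gpx3 was 2.72 (SE 1.20) with all libraries and -0.08 (SE 1.01) without PLLA +US replicate 3, the library with Kap at 62.4 FPKM. Nqo1, a quinone reductase under the factor NRF2, was at 65, 78.5 and 80.5 FPKM in +US cells, against 61.1, 63.8 and 58.9 FPKM in -US cells, with no overlap (0.25, SE 0.18). Gstm1, a glutathione transferase, was at 84.4, 87.7 and 94 FPKM in +US cells, against 61.8, 78.8 and 71.6 FPKM in -US cells (0.29, SE 0.27). Hmox1, heme oxygenase, was at 48.7, 95.5 and 56.7 FPKM in +US cells, against 54.4, 48.7 and 50.5 FPKM in -US cells, and only +US replicate 2 stood out. The 6 members whose ranges lay apart in all 3 against 3 libraries, each with +US higher, beside 4.99% of all tested genes, were Nqo1, Gstm1, Sod3, Gpx7, Prdx1 and Gstp1.

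Cell cycle genes were higher in +US cells in most members, and none passed the test. Of 33 cell cycle genes 23 were higher in +US cells with all libraries (median 0.08) and 26 without PLLA +US replicate 3 (median 0.10), and the correction for GC content and length gave 26 and a median of 0.09. Ranges of all 3 against 3 libraries lay apart in 8 with +US higher and in 1, Cdkn1b, with +US lower, beside 4.99% and 5.8% of all tested genes. Plk1, a mitotic kinase, was at 61.5, 66.3 and 76 FPKM in +US cells, against 49.9, 56.6 and 51.4 FPKM in -US cells (log2 fold change 0.33, SE 0.17, unadjusted p = 0.0732 in edgeR's test). Aurka, the centrosomal Aurora kinase, was at 34.1, 35.3 and 45.1 FPKM in +US cells, against 31.1, 31.3 and 30.3 FPKM in -US cells (0.26, SE 0.14). Cdc20, an activator of the anaphase-promoting complex, was at 63.3, 59.9 and 76.8 FPKM in +US cells, against 45.6, 59.1 and 52.2 FPKM in -US cells. Cdkn1a, the p21 inhibitor of the cell cycle, was also higher without overlap, at 90.6, 92.3 and 125 FPKM in +US cells, against 76.5, 90 and 77.2 FPKM in -US cells. Cdkn1b, the p27 inhibitor, was at 14.9, 12.7 and 13.3 FPKM in +US cells, against 15, 16.5 and 15.2 FPKM in -US cells (-0.22, SE 0.23). PLLA +US replicate 3 was the highest of the 6 libraries in 22 of the 33 genes, and PLLA -US replicate 1 the lowest in 16.

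The direction of the mitochondrial genome's transcripts depended on which libraries entered. Of 13 members 2 were higher in +US cells with all libraries (median -0.11), 13 without PLLA +US replicate 3 (median 0.13), 0 without PLLA +US replicate 2 (median -0.44) and 12 with the correction for GC content and length (median 0.25). The list's median log2 deviation from the -US mean was -0.26, 0.49 and -0.63 in +US replicates 1 to 3, against 0.26, -0.49 and 0.24 in -US replicates 1 to 3. Replicates of 1 group lay further apart than the groups. mt-Co1, a subunit of cytochrome c oxidase, was at 5530, 8340 and 3270 FPKM in +US cells, against 7460, 5280 and 7550 FPKM in -US cells. Nuclear genes of oxidative phosphorylation were higher in 27 of 30 members in both sets, with medians of 0.13 and 0.06. With the correction for GC content and length these were 24 (median 0.09) and 18 (median 0.03), and without PLLA -US replicate 1, the lowest library in 23 of the 30, 22 were higher (median 0.08). Ribosomal protein genes were higher in 30 of 36 members with all libraries and 35 without PLLA +US replicate 3 (medians 0.15 and 0.07), and the reads of single members can be split with their pseudogenes. The correction gave 30 in both sets with medians of 0.08 and 0.02, and leaving out PLLA -US replicate 1, the lowest library in 30 of the 36, gave 27 and a median of 0.08. In both lists 0 members lay apart without overlap in all 3 against 3 libraries.

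BMP and TGF-beta signalling had the largest share of lower members of the 28 lists without PLLA +US replicate 3. Of its 26 members 7 were higher and 19 lower with all libraries (median -0.14), and 5 were higher and 21 lower without that library (median -0.14). The list's median log2 deviation from the -US mean was -0.11, -0.14 and -0.15 in +US replicates 1 to 3, against 0.04, 0.05 and -0.02 in -US replicates 1 to 3. No member passed the test, 4 lay below without overlap in all 3 against 3 libraries and 1 above, beside 5.8% and 4.99% of all tested genes, and the median transcript GC of the list was 49.1%. Among the signal transducers, Smad1 was at 2.68, 2.7 and 3.1 FPKM in +US cells, against 3.19, 3.13 and 3.17 FPKM in -US cells (log2 fold change -0.20, SE 0.19). Smad5, which like Smad1 relays BMP signals, was at 6.21, 5.95 and 5.6 FPKM in +US cells, against 7.2, 7.5 and 6.49 FPKM in -US cells (-0.29, SE 0.30). Smad2, a transducer of TGF-beta and activin, was at 5.39, 5.98 and 5.75 FPKM in +US cells, against 6.98, 6.28 and 6.55 FPKM in -US cells (-0.24, SE 0.24). The BMP targets went in both directions: Id3 was at 44.6, 43.3 and 54.3 FPKM in +US cells, against 30.8, 43 and 40.7 FPKM in -US cells (0.28, SE 0.24). Id2 was at 10.2, 9.14 and 9.33 FPKM in +US cells, against 11, 10.7 and 11.4 FPKM in -US cells (-0.24, SE 0.30). Grem1, a secreted BMP antagonist, was at 59.9, 70.8 and 31 FPKM in +US cells, against 93.6, 54.2 and 76 FPKM in -US cells, with PLLA +US replicate 3 lowest.

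Inflammatory and interferon genes were lower in +US cells in most members with all libraries. In both lists some refits weakened this and others strengthened it. Of 18 inflammatory cytokine genes 5 were higher with all libraries (median -0.09), 4 without PLLA +US replicate 3 (median -0.07) and 9 without PLLA -US replicate 1 (median 0.00). Without replicate 3 of both groups 0 were higher (median -0.18). Ccl2, a monocyte chemokine, was at 104, 114 and 87.2 FPKM in +US cells, against 152, 117 and 113 FPKM in -US cells. Il6, which encodes interleukin 6, was at 3.03, 6.3 and 2.58 FPKM in +US cells, against 6.96, 3.22 and 3.78 FPKM in -US cells, so its groups overlapped. Of 23 interferon response genes 7 and 6 were higher (medians -0.08 and -0.07), against 11 without PLLA +US replicate 2 (median 0.00) and 10 without PLLA -US replicate 2 (median -0.02). With the correction for GC content and length 3 were higher (median -0.07). Ifit1, an interferon-induced sensor of foreign RNA, was at 7, 5 and 3.03 FPKM in +US cells, against 7.16, 8.2 and 7.28 FPKM in -US cells (log2 fold change -0.61, SE 0.61). Of 28 glycolysis and hypoxia genes 14 were higher with all libraries and 8 without PLLA +US replicate 3 (medians 0.00 and -0.03). Bnip3, which hypoxia induces and which marks mitochondria for removal, was at 33.9, 38 and 37.8 FPKM in +US cells, against 45.8, 39.1 and 40.2 FPKM in -US cells (-0.22, SE 0.23). Of 20 Wnt genes 11 and 8 were higher (medians 0.03 and -0.01), of 27 cholesterol and fatty acid genes 16 and 17 (medians 0.01 and 0.03), of 16 VEGF and IGF factors 10 and 9 (medians 0.09 and 0.05), of 20 matrix proteases and inhibitors 11 and 12 (medians 0.08 and 0.05), of 19 ER stress genes 11 and 12 (medians 0.04 and 0.01), and of 8 purinergic and gap junction genes 6 and 6 (medians 0.09 and 0.04). In all 28 lists 0 members passed the test with either set of libraries.

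**Figure D5:**
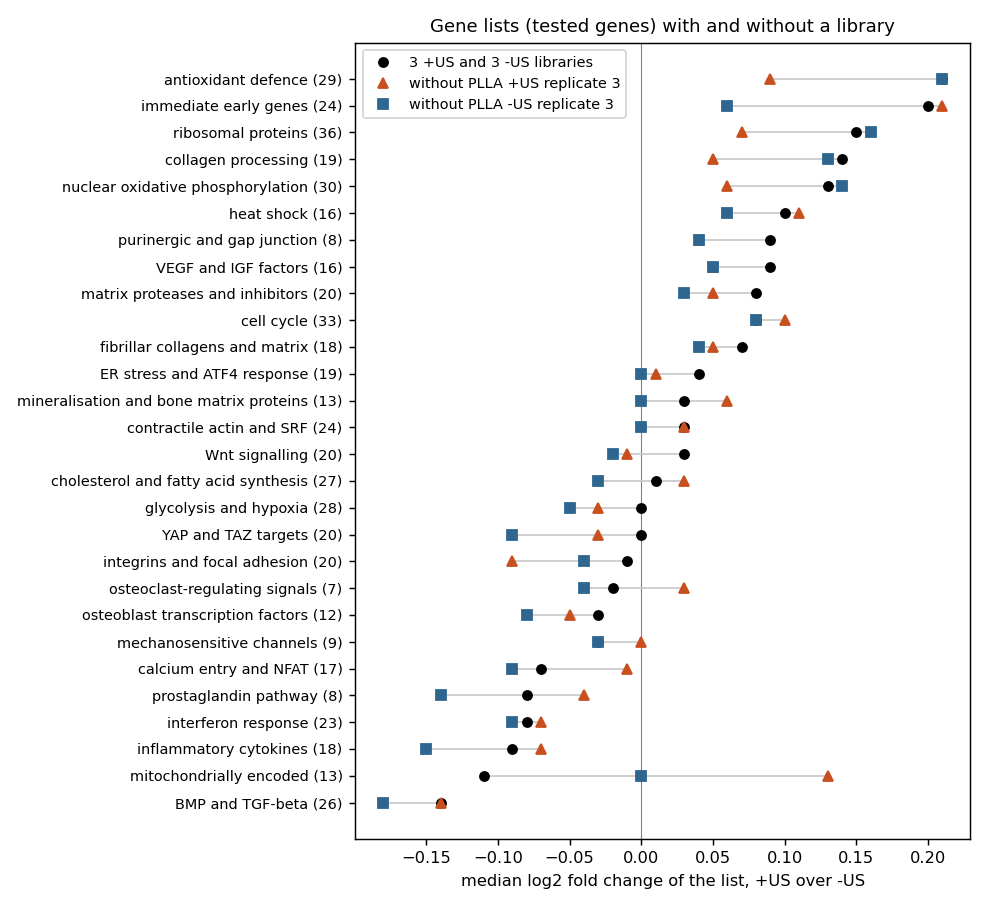
Median log2 fold change (+US over -US) of each of 28 gene lists, with the number of tested genes in brackets, for all 6 PLLA libraries (black), without PLLA +US replicate 3 (orange) and without PLLA -US replicate 3 (blue). Antioxidant genes lie at 0.21 and 0.09 with all libraries and without PLLA +US replicate 3, and immediate early genes at 0.20 and 0.06 with all libraries and without PLLA -US replicate 3.

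The genes with the smallest unadjusted p and ranges that did not overlap had adjusted p-values of 0.978 or above in edgeR's test. Hmgn2, a nucleosome-binding protein with many retroposed copies in the genome, was at 33.5, 24.2 and 39.4 FPKM in +US cells, against 20, 23 and 23.1 FPKM in -US cells. Its log2 fold change was 0.51 (SE 0.18, unadjusted p = 0.0111 in edgeR's test) with all libraries and 0.40 (SE 0.19) without PLLA +US replicate 3. Nxph4, a secreted neurexophilin, was at 2.71, 2.76 and 5.44 FPKM in +US cells, against 1.73, 1.98 and 2.04 FPKM in -US cells. It was at 0.87 (SE 0.32) and, without PLLA +US replicate 3, 0.52 (SE 0.33). Agpat3, an enzyme of phospholipid synthesis, was at 16.5, 18.7 and 20.3 FPKM in +US cells, against 13.9, 15.2 and 13.9 FPKM in -US cells (0.34, SE 0.13). Rsph3a, a radial spoke gene with a near-identical copy, was at 11.9, 10.8 and 12.3 FPKM in +US cells, against 7.7, 9.46 and 8.36 FPKM in -US cells (0.42, SE 0.16, and 0.42, SE 0.18, without PLLA +US replicate 3). Tmem150a, a membrane protein, was at 5.95, 6.76 and 6.64 FPKM in +US cells, against 4.66, 5.13 and 5.06 FPKM in -US cells (0.35, SE 0.13). Among lower genes, Aktip, which takes part in vesicle trafficking and telomere replication, was at 2.95, 3.09 and 3.17 FPKM in +US cells, against 3.33, 3.78 and 3.86 FPKM in -US cells (-0.28, SE 0.12). Rffl, a ubiquitin ligase, was at 2.17, 2.06 and 2.22 FPKM in +US cells, against 2.43, 2.97 and 4.75 FPKM in -US cells (-0.69, SE 0.32). The small RNA genes Snord58b and Mir5125 were at -1.0 (SE 0.44) and -0.98 (SE 0.44). They had at most 13 and 172 counts in a PLLA library.

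The same choice without PLLA +US replicate 3 added metabolic and secreted genes, each with an adjusted p of 1 in edgeR's test. Acadl, a mitochondrial fatty acid dehydrogenase, was at 34.7, 39.3 and 34.4 FPKM in +US cells, against 27.7, 31.1 and 30.1 FPKM in -US cells. Its log2 fold change was 0.33 (SE 0.12) without that library and 0.26 (SE 0.11) with it. Gdpd2, a glycerophosphodiesterase known from osteoblast differentiation in mice, was at 1.74, 3.27 and 1.81 FPKM in +US cells, against 1.06, 1.38 and 1.46 FPKM in -US cells (0.78 with all libraries, 0.96, SE 0.42, without PLLA +US replicate 3, and 0.39 without PLLA +US replicate 2, where it was highest). Rufy1, an endosomal adaptor, was at 7.19, 7.29 and 7.27 FPKM in +US cells, against 5.82, 6.21 and 5.78 FPKM in -US cells (0.30, SE 0.13). Gdnf, a neurotrophic factor, was at 3.99, 4.27 and 7.47 FPKM in +US cells, against 6.91, 5.78 and 5.14 FPKM in -US cells. Mmp9, a gelatinase, was at 11.3, 9.21 and 17.1 FPKM in +US cells, against 13.2, 16.6 and 12.7 FPKM in -US cells. For both, +US replicates 1 and 2 lay below the -US range and +US replicate 3 above it, and the log2 fold changes were -0.52 (SE 0.23) and -0.45 (SE 0.20) without +US replicate 3, and -0.23 (SE 0.23) and -0.22 (SE 0.20) with it. Rtp4, an interferon-induced gene, was at 3.62, 3.14 and 4.53 FPKM in +US cells, against 4.79, 4.99 and 5.11 FPKM in -US cells (-0.54, SE 0.25 without PLLA +US replicate 3).

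The difference between +US and -US cells on PLLA was set against the same difference on the other membranes by an interaction term. For PLLA minus PLLA/ZnO 0 of 11936 genes passed (0.0%, smallest adjusted p = 1 in edgeR's test), with 26 higher (0.218%) and 20 lower (0.168%) on PLLA at an unadjusted p under 0.05. For PLLA minus PLLA/ZnO@Col 0 passed (0.0%, smallest adjusted p = 1), with 49 higher (0.411%) and 97 lower (0.813%). Without PLLA +US replicate 3, 0 passed in both, with 29 higher and 17 lower against PLLA/ZnO and 62 higher and 75 lower against PLLA/ZnO@Col. With 1 library left out the number at an unadjusted p under 0.05 against PLLA/ZnO@Col ran from 53 (without PLLA/ZnO@Col +US replicate 2 or 3) to 549 (without its +US replicate 1) and 772 (without its -US replicate 2, 391 higher and 381 lower). With limma-voom and sample quality weights 767 genes passed against PLLA/ZnO@Col with all libraries and 1025 without PLLA +US replicate 3, so the count of 0 depends on the method. Of all tested genes 53.2% lay above 0 against PLLA/ZnO (median 0.01; 47.8% to 59.5% with a library left out) and 58.1% against PLLA/ZnO@Col (median 0.06; 50.5% without PLLA/ZnO@Col -US replicate 3). PLLA/ZnO +US replicate 3 also stood apart, with a median log2 deviation of -1.24 in the 2385 genes of lowest GC content. PLLA/ZnO@Col +US replicates 2 and 3 were at -0.78 and -0.58 in these genes. Bnip3 was 0.95 log2 units higher for PLLA than for PLLA/ZnO in this difference (SE 0.33) and 0.91 without PLLA/ZnO +US replicate 3. All 28 glycolysis and hypoxia genes lay above 0 (median 0.38), and 27 did without that library (median 0.54); this pattern was already known from these data when the list was chosen. Col1a1 differed by 0.09 (SE 0.31) from PLLA/ZnO and by -0.36 (SE 0.31) from PLLA/ZnO@Col. These differences were -0.09 without PLLA/ZnO -US replicate 3 and -0.09 without PLLA/ZnO@Col -US replicate 2. Runx2 differed by -0.13 (SE 0.28) and -0.09 (SE 0.28). Egr1 differed by -0.02 (SE 0.38) and -0.38 (SE 0.38). Fibrillar collagens and matrix genes lay above 0 in 14 of 18 against PLLA/ZnO (median 0.10), but in 7 without PLLA/ZnO -US replicate 3 (median -0.09). Against PLLA/ZnO@Col 2 of 18 lay above 0 (median -0.31). The correction for GC content and length gave 14 of 18 (median 0.13) against PLLA/ZnO and 4 of 18 (median -0.15) against PLLA/ZnO@Col. With it Col1a1 and Egr1 differed by -0.15 and -0.18 from PLLA/ZnO@Col.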

How the data were processed

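Polyadenylated RNA from MC3T3-E1 cells was sequenced in 18 libraries; the 6 on plain PLLA are described here. The submitters' processing notes list cutadapt 1.9, FastQC and the GRCm38 build. Which aligner and counter were used, and whether strand counted, is not given in the sources used here. For each gene the authors deposited whole-number counts, not normalized, per the file headers. The same deposited table holds FPKM values, scaled by the authors for length and depth. Counts were scaled by TMM and fitted in edgeR 4.0.16 (R 4.3.3) with 1 mean per group over all 18 libraries (12 residual degrees of freedom), and again without PLLA +US replicate 3 (11). Quasi-likelihood F-tests were two-sided with Benjamini-Hochberg adjustment at 0.05 over 11936 genes with at least 1 FPKM in at least 3 libraries. Levels in the text are FPKM, log2 fold changes come from the counts, and the common biological coefficient of variation was 0.28. Overlap of ranges was read from FPKM. GC content came from 1 GENCODE M21 transcript per gene, for 99.91% of tested genes.

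The 28 pathway lists, 23 marker lists, named genes and alternatives were chosen with earlier results of these data known. Named genes were a panel of bone and mechanical genes, the up to 5 higher and 5 lower genes by smallest p with ranges that did not overlap and at least 2 FPKM on average in the higher group, list members at an unadjusted p under 0.05, and the markers with the highest FPKM; since none passed, an unadjusted p under 0.05 was used. Some are left out for length, and other list members described for their overlap or their level in PLLA +US replicate 3 were chosen after their values were seen. Bmp2 and Tnfsf11 were not analysed here. The test was run on simulated counts first. Every pair of PLLA libraries differed by more than sampling noise. Alternatives used DESeq2 1.42.0, limma 3.58.1 (on log2(FPKM + 1) and log2(FPKM + 0.1), and voom with quality weights), other filters, a replicate block, fits of only PLLA libraries, each library left out and, chosen after seeing the data, an offset for GC content and length. Limits read from counts cover counting error only, whereas intervals of log2 fold changes also include the spread between libraries estimated in the fit.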

Additional observations from a re-analysis of the deposited data

How the results depend on the processing

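Most refitted counts of called genes were 0, as reported. With limma-voom and sample quality weights, in which PLLA +US replicate 3 had a weight of 0.24, 1 gene was called for ultrasound on PLLA. It was the pseudogene Rpl27a-ps4 (log2 fold change -1.47, adjusted p = 0.0302 in this test, named after its values were seen). For PLLA minus PLLA/ZnO@Col 767 genes were called, and 1025 when PLLA +US replicate 3 was left out as well. With all libraries PLLA/ZnO@Col -US replicates 1 to 3 had weights of 2.6, 0.131 and 0.162. PLLA/ZnO@Col +US replicates 1 to 3 had 0.281, 1.22 and 2.25. The cause was not tested. With a library left out the counts ranged from 0 to 0 for ultrasound on PLLA, from 0 to 1 without PLLA +US replicate 3 (Fam110b, when +US replicate 2 was the only +US library), from 0 to 1 for PLLA minus PLLA/ZnO (Gm43302, without PLLA/ZnO +US replicate 2) and from 0 to 0 for PLLA minus PLLA/ZnO@Col. A lone library is assumed to vary like those of the other groups. With a replicate block 0 genes were called in every comparison, 66 having an unadjusted p under 0.05 for ultrasound on PLLA. Deviations of same-numbered libraries correlated at 0.235, -0.416 and -0.177, and those of differently numbered libraries at -0.372 to 0.448. These correlations run over all tested genes and cannot decide whether the numbers pair the samples. Named genes were refitted with DESeq2's scaling, DESeq2's own test, limma on log2(FPKM + 1), a replicate block and the offset for GC content and length. They were also refitted with only the PLLA libraries and with each PLLA library left out. Of 30 named genes 22 kept their direction under all of these. Left-out libraries moved the log2 fold changes of the others across 0: they ranged from -0.50 to 0.09 for Spp1, -0.60 to 0.03 for Tnfrsf11b, -0.70 to 0.11 for Ptgs2, -0.03 to 0.11 for Piezo1, -0.07 to 0.28 for Hspa1a, -0.25 to 0.08 for Mmp13 and -0.08 to 3.24 for Gpx3. The offset for GC content and length gave -0.02 for Sparc and 0.10 for Mmp13. Under these refits, which leave out the quality weights and the other filters, the smallest adjusted p of a named gene was 0.742. Of the refitted list medians 237 moved by less than that list's standard deviation between replicates and 15 did not. This measure is lenient for lists whose replicates differ widely. The mitochondrial list, with a standard deviation of 0.458, counted as unmoved although its direction changed, and so did the immediate early list without PLLA -US replicate 3. Genes under the 1 FPKM minimum, Sp7, Alpl, Bglap and Ibsp among them, did not enter the main test.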
